A study of Mus musculus with 11 samples.

Results

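Cathepsins are the main proteases of the lysosome. They were followed here through 9 genes: Ctse, Ctsd, Ctsb, Ctsl, Ctss, Ctsf, Ctsh, Ctsc and Ctsz. The genes were picked by symbol among the 24411 gene symbols of each count table, and all 9 were found. RNA came from sorted myeloid cells of mouse brain, labelled microglia-like, after competitive transplantation of blood-forming cells in a study of a mouse model of Alzheimer's disease. Cells had been given by 3 routes, which the labels call IV (into a vein), ICV (into the ventricles of the brain) and ITL (a lumbar intrathecal injection). From each route came 1 library of CD45.1 TAµ cells, 1 of CD45.2 µ cells and 1 of CD45.1 µ cells, CD45.1 and CD45.2 being alleles of the leukocyte antigen CD45. With a CD45.2 library of the ICV route named PBS and a control, CTR µ, this gives 11 libraries. In the design, lineage-negative stem and progenitor cells went into the ventricles and total marrow, lineage-negative or KSL (c-kit+ Sca-1+ lineage-negative) cells into a vein, on the same day or 5 days later, with ITL as another route. Which of these schemes a library belongs to is not labelled. The labels expand neither TAµ nor PBS. Nor do they give the allele of the host, the strain, age or sex of the animals, or any pooling of animals. As each combination of route and population has 1 library, p-values measure the spread between these libraries and not between animals.

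Most cathepsins are made as inactive precursors, carried to the lysosome and activated there by acid. Cathepsins D and E are aspartic proteases, and the other members are cysteine proteases of the papain family. In microglia and macrophages they break down engulfed material. Some also trim the invariant chain that blocks the peptide groove of MHC class II molecules. Cathepsin E differs from the lysosomal members in that it sits mostly in endosomes and is made by few cell types, among them immune cells and cells of the stomach lining.

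Total counts per library lay between 6090589 (ITL CD45.2 µ) and 21282823 (ICV CD45.2 µ), so that a count of 0 allowed up to 0.493 CPM in the shallowest library. CPM is a gene's count divided by the library total in megacounts. All 10 microglial marker genes checked had counts in every group, and their summed level was 8265 to 11967 CPM in CD45.1 TAµ, 11776 to 20318 CPM in CD45.2 µ, 10021 to 18344 CPM in CD45.1 µ, 7801 CPM in PBS and 27546 CPM in CTR µ. Neutrophil markers summed to 2.01 CPM in IV CD45.2 µ and to 13188 CPM in IV CD45.1 µ. Rn45s, the precursor of ribosomal RNA, took 6.98% to 25.1% of counts. ICV CD45.1 µ stood apart from the other CD45.1 libraries in Xist, the RNA that silences an X chromosome. It had 6291 CPM of Xist, the other CD45.1 libraries had 12.3 to 1369 CPM, the 4 CD45.2 libraries had 4028 to 6399 CPM, and CTR µ had none.

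Cathepsin messages made up a small share of each library. The 9 genes took 1.26% ± 0.199 of all counts in the 9 libraries of the complete layout (mean ± SD, n = 9, 1.01% to 1.59%), 1.01% in PBS and 1.43% in CTR µ. By population the share was 1.32% ± 0.191 in CD45.1 TAµ, 1.14% ± 0.179 in CD45.2 µ and, for CD45.1 µ, 1.32% ± 0.238 (SD, n = 3 each), with ranges that overlap. Over the 11 libraries Ctsd alone gave 35.3% to 51.1% of the sum, Ctss 19.1% to 28.6% and Ctsb 13.2% to 19.7%. Ctse gave at most 1.86% of it.

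**Figure D1:**
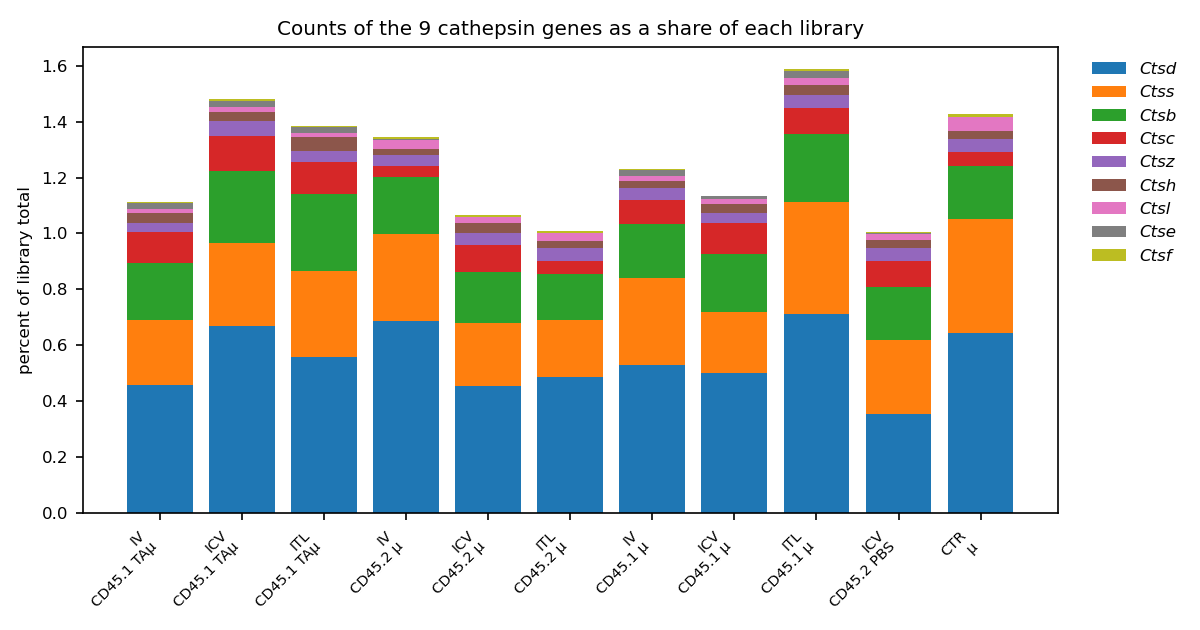
Stacked bars give the counts of the 9 cathepsin genes as a percent of the library total for each of the 11 libraries. Bar heights run from 1.01% (PBS) to 1.59% (ITL CD45.1 µ), and Ctsd, Ctss and Ctsb fill most of each bar.

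Per kilobase of annotated exon, a rough scale for comparing genes, Ctsd and Ctss led. Their medians over the 9 libraries were 2254 and 2171 CPM per kb, and their ranges overlapped. Ctsb (335 CPM per kb) and Ctsz (286 CPM per kb) came next, also with overlapping ranges, and their ranges lay clear of those of Ctss above and Ctsc below. Ctsc (167), Ctsh (72.7), Ctse (59.9) and Ctsl (30.0 CPM per kb) followed, each overlapping its neighbour, and Ctsf (8.97 CPM per kb) was lowest and clear of Ctsl. Single libraries of Ctse lay between 0.414 and 74.1 CPM per kb. Lengths are the joined exons of all transcripts of a gene in GENCODE M21, an annotation of an older build than the one the reads were aligned to. They ran from 1358 bases for Ctss to 6489 for Ctsl. Such a length can exceed that of the transcript made, which lowers the level per kb, so the order of genes depends on the annotation. Exons of Ctsb share 12.8% of their bases with Fdft1 on the opposite strand and those of Ctsz share 0.694% with Nelfcd. Where strand was not used, reads from these bases cannot be told apart between the genes. Exons of Ctsd share 34.4% of their bases with Gm49369 on the same strand, and those of Ctsl share 26.8% with Gm47123 on the opposite strand. Neither Gm49369 nor Gm47123 is among the counted symbols.

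Promoter sequences are shown for Ctsl, Ctsf and Ctss, the members that lay below the control library in all 9 transplant libraries, and for Ctsc, which came closest to passing a test after Ctse. They are RefSeq sequences of build GRCm38.p6, 250 bases before to 50 after the start of the gene, written 5′ to 3′ on the strand of the gene. Ctsl lies at chr13:64370471-64370770 on the minus strand, Ctsf at chr19:4854915-4855214 on the plus strand, Ctss at chr3:95526536-95526835 on the plus strand and Ctsc at chr7:88277835-88278134 on the plus strand. Capitals mark matches on either strand to 3 motifs. CACGTG is the E-box that factors of the TFEB family, the regulators of lysosomal genes, can bind. GAGGAAG is a core of sites of PU.1, a myeloid lineage factor. The last motif, the core of interferon-stimulated response elements, is GAAA, any pair of bases and GAAA again.
Ctsl: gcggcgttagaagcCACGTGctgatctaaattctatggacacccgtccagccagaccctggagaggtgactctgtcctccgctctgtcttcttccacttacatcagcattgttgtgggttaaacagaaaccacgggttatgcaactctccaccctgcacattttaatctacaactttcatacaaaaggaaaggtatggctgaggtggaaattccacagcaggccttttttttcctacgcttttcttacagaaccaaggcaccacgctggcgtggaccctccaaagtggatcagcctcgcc
Ctsf: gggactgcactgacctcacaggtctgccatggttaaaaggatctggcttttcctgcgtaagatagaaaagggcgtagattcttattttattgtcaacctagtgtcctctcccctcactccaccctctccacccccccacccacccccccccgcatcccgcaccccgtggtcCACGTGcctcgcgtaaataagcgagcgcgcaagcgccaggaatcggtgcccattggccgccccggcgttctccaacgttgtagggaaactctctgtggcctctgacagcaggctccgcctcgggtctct
Ctss: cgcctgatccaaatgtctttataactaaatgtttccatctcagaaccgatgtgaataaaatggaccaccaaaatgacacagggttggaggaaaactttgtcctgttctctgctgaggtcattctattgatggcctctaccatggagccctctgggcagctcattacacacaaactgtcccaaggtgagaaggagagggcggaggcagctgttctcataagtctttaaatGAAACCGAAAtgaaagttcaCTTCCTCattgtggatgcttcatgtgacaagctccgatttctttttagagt
Ctsc: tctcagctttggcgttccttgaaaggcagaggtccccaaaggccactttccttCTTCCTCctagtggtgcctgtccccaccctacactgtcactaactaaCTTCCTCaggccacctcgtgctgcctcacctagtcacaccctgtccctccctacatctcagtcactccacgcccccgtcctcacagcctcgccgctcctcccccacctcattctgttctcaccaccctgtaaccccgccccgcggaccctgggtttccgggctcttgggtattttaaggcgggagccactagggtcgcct
Of the 9 members, 6 had a promoter in the table and 3 of these held CACGTG: Ctsl with its first base at -236 from the start, Ctsf at -79 and Ctsd at -245 and -98, the second within the longer TCACGTGA. The E-box was found in 7.15% of 32851 promoters of the same length and TCACGTGA in 0.974%. GAGGAAG was found in Ctss, across the start, and in Ctsc at -197 and -150, against 13.6% of promoters, and the interferon core in Ctss at -21, against 3.44%. A match describes the letters in this window and is not evidence that a factor binds there.

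Ctse, the endosomal aspartic protease, had 207, 223 and 190 CPM in the IV, ICV and ITL CD45.1 TAµ libraries. It had 1.31, 23.5 and 6.24 CPM in IV, ICV and ITL CD45.2 µ, and 209, 79.4 and 235 CPM in IV, ICV and ITL CD45.1 µ. PBS had 26.5 CPM and CTR µ 2.37 CPM (exact Poisson 95% interval 1.61 to 3.37, counting error only). The 6 CD45.1 libraries (79.4 to 235 CPM) all lay above the 4 CD45.2 libraries (1.31 to 26.5 CPM) and above CTR µ. Ctse was the only member whose CD45.1 and CD45.2 libraries did not overlap, which held, with CD45.1 above, for 0.501% of 14766 genes. The lowest value, in IV CD45.2 µ, rested on 17 reads.

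Ctsd, the main lysosomal aspartic protease, showed no such split. It had 4577, 6702 and 5574 CPM in IV, ICV and ITL CD45.1 TAµ, 6863, 4566 and 4859 CPM in CD45.2 µ and 5300, 5033 and 7139 CPM in CD45.1 µ, with routes in the same order. PBS had 3551 CPM, below all 9, and CTR µ had 6436 CPM, inside their range. Set against Ctsd within the same library, Ctse amounted to 1.58% to 4.52% of the Ctsd count in the 6 CD45.1 libraries, to 0.0191% to 0.745% in the 4 CD45.2 libraries and to 0.0369% in CTR µ. This ratio does not depend on how libraries are scaled.

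**Figure D2:**
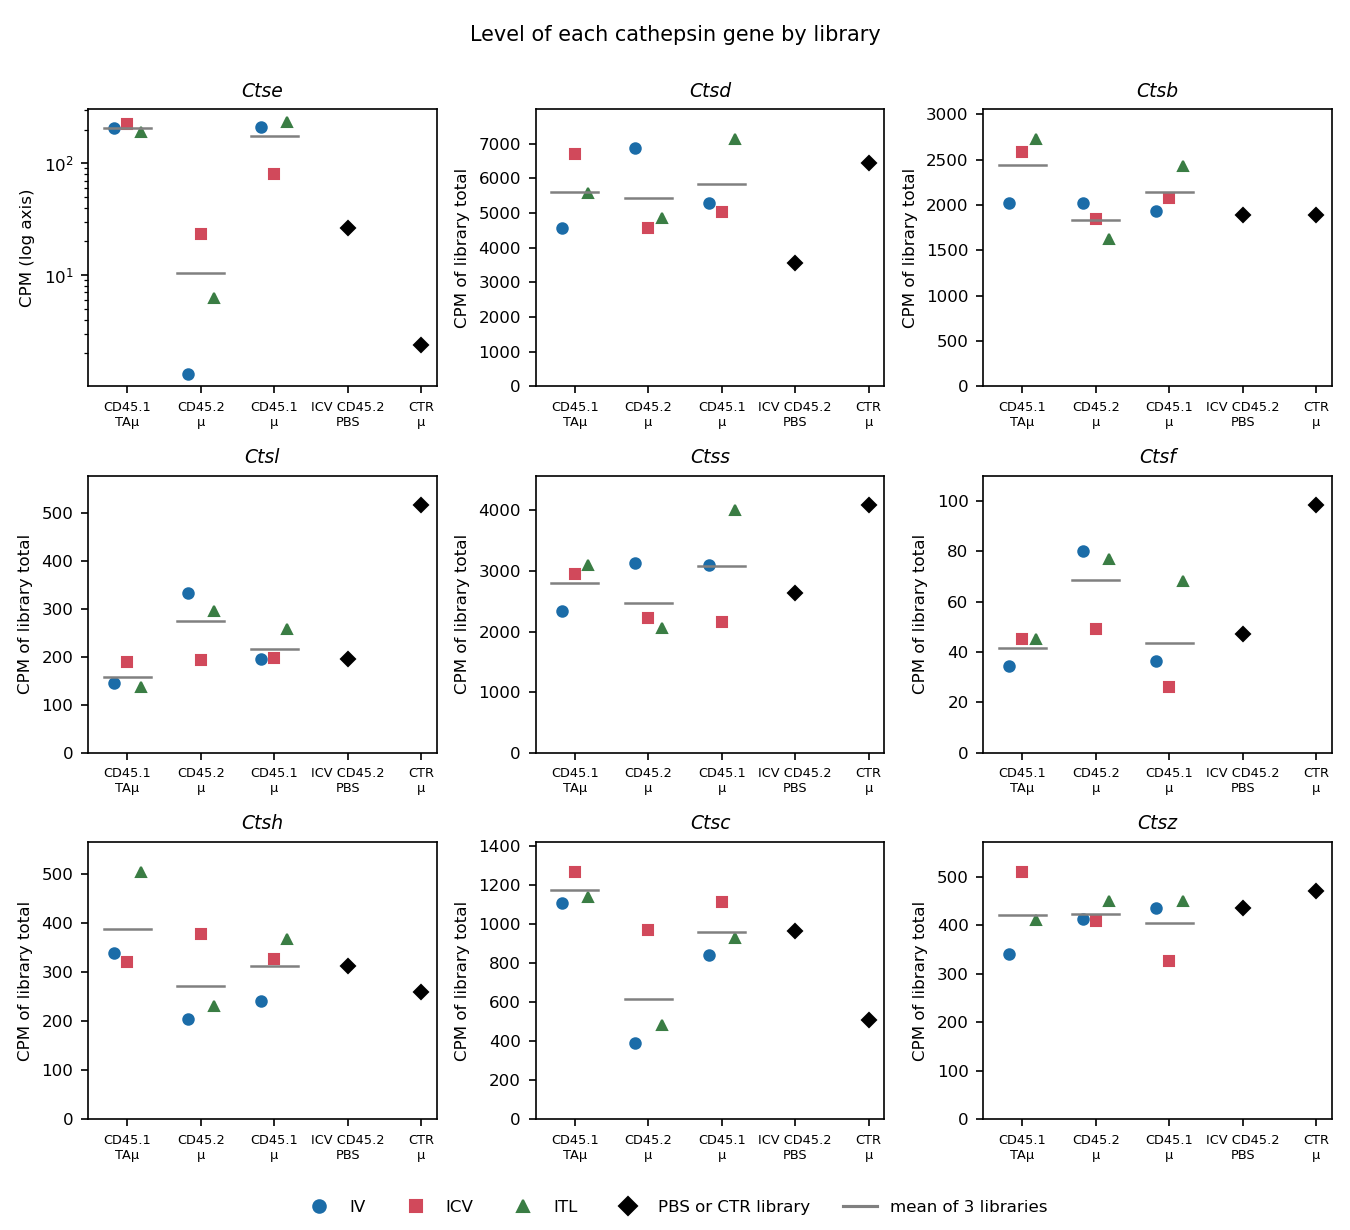
Each panel shows 1 gene in CPM of the library total, on a log axis for Ctse and from 0 for the others. Points are libraries, coloured and shaped by route, the grey line is the mean of the 3 libraries of a population, and the black diamonds are PBS and CTR µ. Ctse lies between 79.4 and 235 CPM in the CD45.1 libraries and at 26.5 CPM or less elsewhere, while Ctsl, Ctss and Ctsf are highest in CTR µ.

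Among the cysteine endopeptidases, Ctsb had 2025, 2581 and 2731 CPM in IV, ICV and ITL CD45.1 TAµ, 2024, 1843 and 1629 CPM in CD45.2 µ and 1936, 2083 and 2427 CPM in CD45.1 µ. PBS (1888 CPM) and CTR µ (1890 CPM) lay inside that range. In CPM of the library total all 3 CD45.1 TAµ libraries were above all 3 CD45.2 µ libraries, the closest 2 by a narrow margin. With TMM factors (a scaling that evens out the make-up of libraries, used in the tests) IV CD45.1 TAµ, at 1901 CPM, was below ICV CD45.2 µ, at 2006 CPM, and the groups also overlapped without Rn45s. Cathepsin B is an abundant lysosomal enzyme that cuts both within and at the end of proteins.

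Ctss, which encodes the cathepsin that trims the invariant chain in antigen-presenting cells, had 2339, 2949 and 3100 CPM in IV, ICV and ITL CD45.1 TAµ, 3130, 2222 and 2064 CPM in CD45.2 µ and 3106, 2163 and 3999 CPM in CD45.1 µ. CTR µ had 4085 CPM and PBS 2632 CPM. The populations overlapped, and ITL CD45.1 µ came closest to the control.

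Ctsl, a broadly expressed endopeptidase, had 145, 190 and 138 CPM in IV, ICV and ITL CD45.1 TAµ, 334, 193 and 297 CPM in CD45.2 µ and 195, 198 and 257 CPM in CD45.1 µ. CTR µ stood at 517 CPM and PBS at 196 CPM. In CPM of the library total the CD45.1 TAµ libraries were the 3 lowest of the 11, but with TMM factors or without Rn45s the IV and ITL ones were the lowest 2 and the ICV one was not the third. With TMM factors ICV CD45.1 TAµ had 217 CPM, ICV CD45.2 µ 210 CPM and ICV CD45.1 µ 179 CPM.

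Ctsf, which encodes a cathepsin reported to process the invariant chain in macrophages, had the lowest median level per kilobase. It had 34.6, 45.23 and 45.197 CPM in IV, ICV and ITL CD45.1 TAµ, 80.0, 49.2 and 77.0 CPM in CD45.2 µ and 36.6, 26.2 and 68.3 CPM in CD45.1 µ. CTR µ had 98.3 CPM and PBS 47.3 CPM. As for Ctsl, the highest of the transplant libraries were IV and ITL CD45.2 µ.

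The exopeptidases trim the ends of proteins. Ctsc, which activates granule proteases by removing dipeptides, had 1110, 1269 and 1140 CPM in IV, ICV and ITL CD45.1 TAµ, 389, 970 and 482 CPM in CD45.2 µ and 842, 1113 and 927 CPM in CD45.1 µ. PBS had 962 CPM and CTR µ 508 CPM. The IV and ITL CD45.2 µ libraries were lower than all others, CTR µ included, and the ICV CD45.2 µ and PBS libraries lay among the CD45.1 ones.

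Ctsh, an aminopeptidase, had 339, 320 and 506 CPM in IV, ICV and ITL CD45.1 TAµ, 205, 378 and 231 CPM in CD45.2 µ and 241, 327 and 367 CPM in CD45.1 µ, with PBS at 313 CPM and CTR µ at 259 CPM. Ctsz, a carboxypeptidase, varied least. It had 340, 511 and 412 CPM in IV, ICV and ITL CD45.1 TAµ, 412, 410 and 451 CPM in CD45.2 µ and 436, 327 and 450 CPM in CD45.1 µ, with PBS at 435 CPM and CTR µ at 471 CPM. Over the 9 libraries its SD was 13.5% of its mean, against 77.2% for Ctse, 37.6% for Ctsf, 32.9% for Ctsc, 30.7% for Ctsl, 28.4% for Ctsh and 16.9% to 22.9% for Ctsb, Ctsd and Ctss.

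Of 14 further cathepsin symbols in the tables, Ctsa, the carboxypeptidase also called protective protein, had 519 to 730 CPM in the 9 libraries and 567 CPM in CTR µ. Ctso had 48.0 to 111 CPM in them and 85.3 CPM in CTR µ. Ctsk had at most 25.8 CPM, and Ctsg and Ctsw had at most 5.25 and 1.59 CPM in any library. The other 9, most of them of the placental cathepsin cluster of rodents, had a count of 0 in all 11 libraries.

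The first comparison of populations set CD45.2 µ against CD45.1 µ, sorted by the allele of CD45. Ctse fell in CD45.2 µ and was the only member of the 9 that passed. It averaged 10.3 ± 11.6 CPM in CD45.2 µ and 174 ± 83.3 CPM in CD45.1 µ (SD, n = 3 each), a log2 fold change of -3.82 ± 0.60 (SE, edgeR quasi-likelihood test over 13339 genes, Benjamini-Hochberg adjusted p = 0.0423), lower in 3 of 3 routes. Over all genes 0.03% passed, so 1 of 9 members stands beside 4 of 13339 genes. The 3 CD45.2 µ libraries lay below the 3 CD45.1 µ libraries, as for 5.64% of genes. Within routes Ctse in CD45.2 µ was 159-fold lower than in CD45.1 µ for IV, 37.7-fold for ITL and 3.38-fold for ICV. The IV ratio rests on IV CD45.2 µ, which had the fewest genes with a count, 10477, where IV CD45.1 TAµ had the most, 15492. The call depended on single libraries. It was lost without the IV (adjusted p = 0.206) or ITL (0.230) library of CD45.2 µ, without the IV (0.215) or ITL (0.342) library of CD45.1 µ, and without the IV (0.353) or ICV (0.099) library of CD45.1 TAµ. With ICV CD45.2 µ left out, the log2 estimate was -5.98 (adjusted p = 0.00149), and with ICV CD45.1 µ left out it was -4.84 (adjusted p = 0.0193).

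No other member passed in CD45.2 µ against CD45.1 µ, and Ctse and Ctsc alone had an unadjusted p under 0.05, as 8.79% of genes did. Ctsc averaged 614 ± 312 CPM in CD45.2 µ and 961 ± 139 CPM in CD45.1 µ (SD, n = 3 each), with a log2 fold change of -0.68 ± 0.25 (SE, edgeR adjusted p = 0.486). It was lower in 3 of 3 routes in CPM of the library total and in 2 of 3 with TMM factors or without Rn45s. Ctsf averaged 68.7 ± 17.0 CPM in CD45.2 µ and 43.7 ± 21.9 CPM in CD45.1 µ, with a log2 fold change of 0.74 ± 0.36 (edgeR adjusted p = 0.575), higher in 3 of 3 routes. The remaining 6 members had log2 fold changes between -0.26 (Ctss) and 0.37 (Ctsl), with 95% intervals that reached no further than -0.81 and 0.93. The median over the 9 members was -0.14, against -0.01 over all genes.

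Ctse rose in CD45.1 TAµ against CD45.2 µ. It averaged 207 ± 16.6 CPM in CD45.1 TAµ and 10.3 ± 11.6 CPM in CD45.2 µ (SD, n = 3 each), a log2 fold change of 4.14 ± 0.58 (SE, edgeR adjusted p = 0.00197), higher in 3 of 3 routes. It was the only one of the 9 that passed, where 0.345% of all genes did, and 5 of 9 had an unadjusted p under 0.05, as 6.75% of genes did. Leaving out IV CD45.1 TAµ ended the call (adjusted p = 0.1), and leaving out ICV CD45.2 µ gave a log2 fold change of 6.47 (adjusted p = 0.000107). The ratio of CD45.1 TAµ to CD45.2 µ was 157-fold for IV, 30.4-fold for ITL and 9.49-fold for ICV. The IV ratio again rests on IV CD45.2 µ, the library with the fewest detected genes.

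Ctsc came next in the comparison of CD45.1 TAµ with CD45.2 µ and did not pass in the edgeR fit. It averaged 1173 ± 84.6 CPM in CD45.1 TAµ and 614 ± 312 CPM in CD45.2 µ (SD, n = 3 each), with a log2 fold change of 1.09 ± 0.25 (SE, edgeR adjusted p = 0.0841). It passed in 5 of 20 alternatives, with adjusted p of 0.000556 in DESeq2 and 0.0199 in limma-voom. In the others adjusted p reached 0.511 without a route term and 0.915 without IV CD45.1 TAµ. Without ICV CD45.2 µ, the library among the CD45.2 µ ones with the highest Ctsc, edgeR gave 1.51 (adjusted p = 0.00588). CD45.1 TAµ lay above CD45.2 µ without overlap for 3 members, Ctse, Ctsb and Ctsc (6.29% of all genes), and below it for 2, Ctsl and Ctsf (4.78%), in CPM of the library total. With TMM factors only Ctse lay above without overlap (6.47% of 14766 genes) and only Ctsf below (5.03%), and the same 2 genes remained without Rn45s. Ctsl averaged 158 ± 28.4 CPM in CD45.1 TAµ and 275 ± 73.1 CPM in CD45.2 µ (log2 fold change -0.68 ± 0.27, edgeR adjusted p = 0.588). Ctsf averaged 41.7 ± 6.13 CPM in CD45.1 TAµ and 68.7 ± 17.0 CPM in CD45.2 µ (log2 fold change -0.62 ± 0.36, edgeR adjusted p = 0.835). Ctsb had 0.49 ± 0.22 (edgeR adjusted p = 0.694) and Ctsh 0.58 ± 0.27 (edgeR adjusted p = 0.709), while Ctsd, Ctss and Ctsz had log2 fold changes of 0.08 to 0.27. The median over the 9 members was 0.27, against 0.10 over all genes. Both CD45.2 contrasts share the CD45.2 µ libraries, so their values for a gene are not independent.

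CD45.1 TAµ against CD45.1 µ asked how the 2 CD45.1 populations differ. None of the 9 members passed in edgeR, DESeq2 or limma-voom, and 0 had an unadjusted p under 0.05 in edgeR, where 0.075% of all genes passed with adjustment and 5.36% without. Ctse averaged 207 ± 16.6 CPM in CD45.1 TAµ and 174 ± 83.3 CPM in CD45.1 µ (SD, n = 3 each), a log2 fold change of 0.32 with a 95% interval of -0.66 to 1.30, higher in 1 of 3 routes. In CPM of the library total Ctsl was the only member without overlap, at 138 to 190 CPM in CD45.1 TAµ and 195 to 257 CPM in CD45.1 µ (6.33% of genes were likewise lower without overlap), with a log2 fold change of -0.31 ± 0.27 (SE, edgeR adjusted p = 0.895). With TMM factors or without Rn45s Ctsl overlapped, and Ctsc alone lay higher without overlap, as 10.1% of 14766 genes did with TMM factors. Ctsc was higher in CD45.1 TAµ in 3 of 3 routes and Ctsb in 3 of 3, or 2 of 3 with TMM factors, by 0.41 and 0.31 on the log2 scale (edgeR adjusted p = 0.874 for each). The other members ran from 0.01 (Ctss) to 0.45 (Ctsh), and the median over 9 was 0.17, against 0.06 over all genes.

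**Figure D3:**
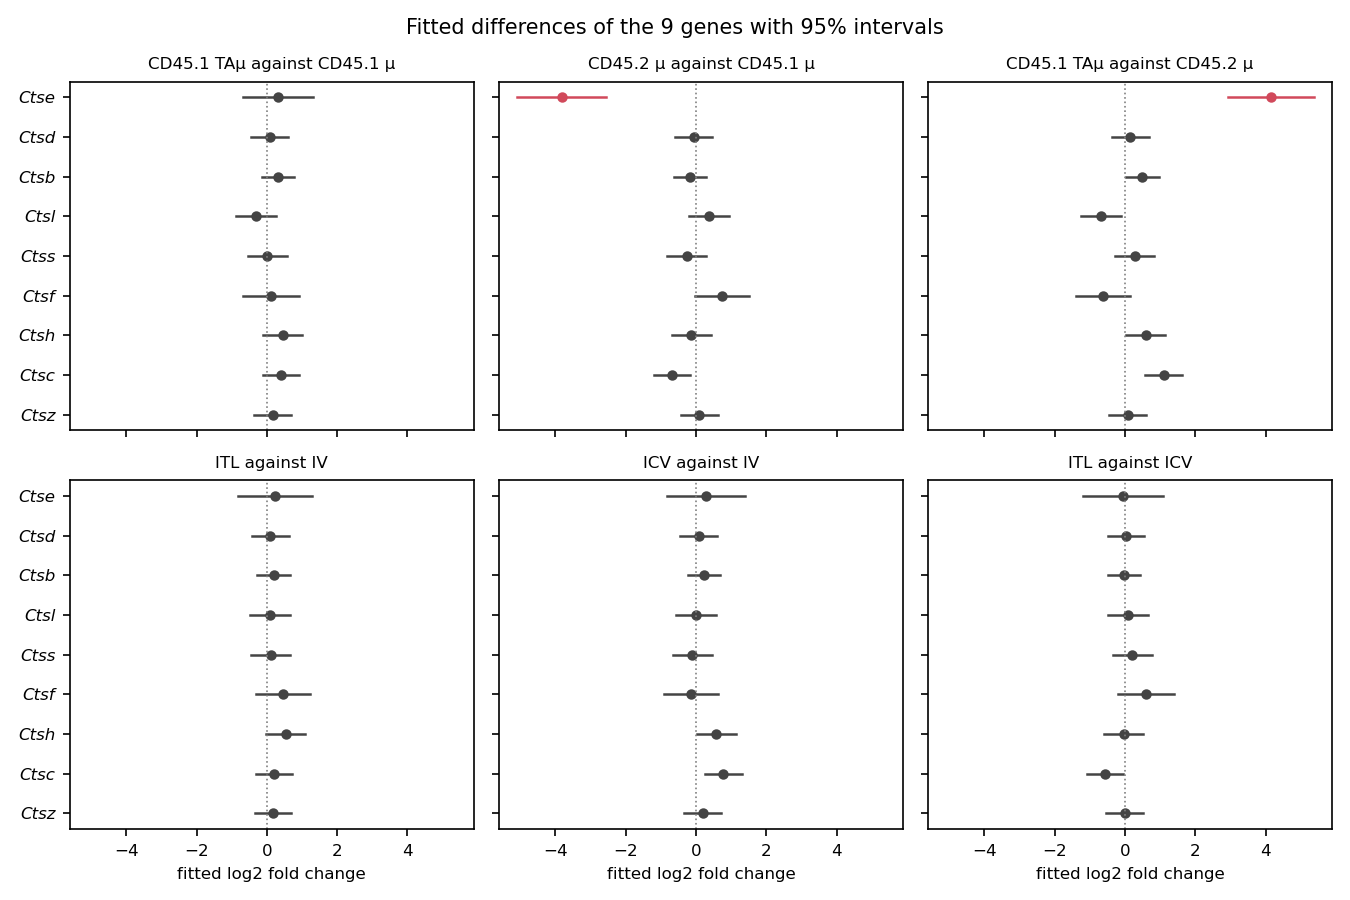
Fitted log2 fold changes (points) with 95% intervals (lines) for the 9 genes in the 6 comparisons, the named first group over the second. Red marks an adjusted p under 0.05 in edgeR's quasi-likelihood test: Ctse at -3.82 in CD45.2 µ against CD45.1 µ and at 4.14 in CD45.1 TAµ against CD45.2 µ. The other 52 of the 54 estimates did not pass.

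The route of delivery was compared over the same 9 libraries. For ITL against IV, 0 of 9 members passed and 0 had an unadjusted p under 0.05 in edgeR, beside 0.217% of all genes with adjustment and 5.35% without. All 9 log2 fold changes were above 0, from 0.10 (Ctsl) to 0.53 (Ctsh), with a median of 0.20 against 0.05 over all genes, of which 53.0% were above 0. Ctsh averaged 368 ± 137 CPM for ITL and 262 ± 68.9 CPM for IV (SD, n = 3 each) and was higher in 3 of 3 populations (log2 fold change 0.53 ± 0.26, edgeR adjusted p = 0.915).

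For ICV against IV, 0 of 9 members and 0% of all genes passed in edgeR. Ctsc and Ctsh had an unadjusted p under 0.05, as 9.22% of genes did. Ctsc averaged 1117 ± 150 CPM for ICV and 780 ± 365 CPM for IV (SD, n = 3 each), higher in 3 of 3 populations, with a log2 fold change of 0.78 ± 0.25 (SE, edgeR adjusted p = 0.398). Ctsh averaged 342 ± 31.6 CPM for ICV and 262 ± 68.9 CPM for IV, with a log2 fold change of 0.57 ± 0.26 (edgeR adjusted p = 0.533). Ctse averaged 109 ± 103 CPM for ICV and 139 ± 119 CPM for IV, yet its fitted log2 fold change, which takes out the populations, was 0.29 with a 95% interval of -0.81 to 1.40. The other 6 members had log2 fold changes between -0.13 (Ctsf) and 0.22 (Ctsb).

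For ITL against ICV, 0 of 9 members and 0% of all genes passed in edgeR, and Ctsc alone had an unadjusted p under 0.05, as 3.79% of genes did. Ctsc averaged 850 ± 336 CPM for ITL and 1117 ± 150 CPM for ICV (SD, n = 3 each), lower in 3 of 3 populations, with a log2 fold change of -0.58 ± 0.25 (SE, edgeR adjusted p = 0.998). The other 8 members lay between -0.06 (Ctse) and 0.59 (Ctsf). DESeq2 and limma-voom passed 0 of 9 members in each of the 3 route comparisons. With 1 library for each combination, a difference between populations that depends on route could not be tested.

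CTR µ was set beside the 9 transplant libraries without a test. For Ctss, Ctsl and Ctsf all 9 libraries lay below CTR µ, which held for 5.63% of 14766 genes, and did so on all 3 scales used. The mean of the 9 was 0.682 of the CTR µ level for Ctss, 0.419 for Ctsl and 0.522 for Ctsf, and the nearest library still lay below, at 3999 CPM against 4085 CPM (exact Poisson 95% interval 4051 to 4120) for Ctss, 334 against 517 CPM for Ctsl and 80.0 against 98.3 CPM for Ctsf. For Ctse 8 of the 9 were above CTR µ. The 6 CD45.1 libraries averaged 190 ± 56.5 CPM (SD, n = 6) and the 3 CD45.2 µ libraries 10.3 ± 11.6 CPM (SD, n = 3), against 2.37 CPM in CTR µ. IV CD45.2 µ had 17 reads, and its exact Poisson 95% interval (0.765 to 2.10 CPM) overlapped that of CTR µ. Ctsc was higher than CTR µ in 7 of 9 and Ctsb in 7 of 9. Summed microglial markers were also lower in all 9 libraries, at most 20318 CPM against 27546 CPM in CTR µ, and their part in the lower Ctss, Ctsl and Ctsf was not tested. In RNA from mixed cells, fewer cells of a type and less RNA per cell cannot be told apart.

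ICV CD45.2 µ was compared with the PBS library of the same route and allele, 1 library each and so with no test. No member differed by 1.5-fold or more, where 37.1% of 14766 genes did. The ratio of ICV CD45.2 µ to PBS ran from 0.844 for Ctss (exact 95% interval 0.834 to 0.855, counting error only) and 0.888 for Ctse (0.784 to 1.01) to 1.21 for Ctsh and 1.29 for Ctsd (1.27 to 1.30). Ctsc was nearly level, at 970 CPM in ICV CD45.2 µ and 962 CPM in PBS. These ratios are in CPM of the library total, and their intervals leave out the choice of scale. With TMM factors every ratio was higher, at 1.42 for Ctsd, 1.33 for Ctsh, 1.11 for Ctsc, 0.977 for Ctse and 0.930 for Ctss. Ctsb, Ctsl and Ctsz moved from below 1 to above 1, and still no member reached 1.5-fold.

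Border-associated macrophages line the vessels and membranes of the brain. All 10 of their markers had counts in each group. They summed to 2206 to 2691 CPM in CD45.1 TAµ, 674 to 1926 CPM in CD45.2 µ and 2128 to 2945 CPM in CD45.1 µ, with 1721 CPM in PBS and 273 CPM in CTR µ, so in CPM of the library total the CD45.1 and CD45.2 libraries did not overlap. With TMM factors ITL CD45.1 µ (2027 CPM) was below ICV CD45.2 µ (2098 CPM). Mrc1 made up most of the sum, with 1446 to 1950 CPM in CD45.1 TAµ, 380 to 1386 CPM in CD45.2 µ and 1328 to 2111 CPM in CD45.1 µ. Of the 10 markers, 8 had, in CD45.1 TAµ against CD45.2 µ, a log2 fold change above 0, as 56.9% of genes did, and Cd163 and Lyve1 had -0.67 and -0.043. In CD45.2 µ against CD45.1 µ 10 of 10 were below 0, and 0 passed in edgeR. Over the 11 libraries r between Ctse and the sum of these markers was 0.87 on the log2 scale (rho = 0.75), which mostly describes the split of Ctse. Within the 6 CD45.1 libraries it was -0.66, where ICV CD45.1 µ had the lowest Ctse (79.4 CPM) and the highest sum (2945 CPM). Such values were not particular to Ctse. Over the 11 libraries r with this sum was -0.89 for Ctsl, -0.82 for Ctsf and 0.82 for Ctsc. Within the 6 CD45.1 libraries these were -0.027, -0.61 and 0.43. The remaining members lay between -0.30 (Ctss) and 0.51 (Ctsh) over the 11. Mrc1, which encodes the mannose receptor of these macrophages, rose in CD45.1 TAµ against CD45.2 µ (log2 fold change 1.49 ± 0.29, edgeR adjusted p = 0.0303). Among microglial markers Sall1, a factor of microglial identity, fell in CD45.1 TAµ against CD45.1 µ (log2 fold change -4.83, edgeR adjusted p = 0.000199) and against CD45.2 µ (-6.27, edgeR adjusted p = 3.6e-06). P2ry12, a purine receptor of microglia, fell in CD45.1 TAµ against CD45.2 µ (-1.44, edgeR adjusted p = 0.0427). Mpo, of granules of neutrophil progenitors, rose in CD45.1 TAµ against CD45.2 µ (edgeR adjusted p = 0.00871), at 35.9, 93.3 and 2.73 CPM in IV, ICV and ITL CD45.1 TAµ and 0.386, 0 and 0 CPM in CD45.2 µ, and all 4 tested genes of that list had a log2 fold change above 0. Slc1a3, a glutamate transporter of astrocytes, fell (-2.57, edgeR adjusted p = 0.0473), as 9 of 10 astrocyte markers were below 0, and those summed to 62.2 to 263 CPM in CD45.1 TAµ and 238 to 636 CPM in CD45.2 µ. The part of these cells in the Ctse difference was not tested. Genes that tell the sex of the cells differed between alleles too. The CD45.2 libraries had 0.051 to 45.8 CPM of 4 Y-linked genes and at least 4028 CPM of Xist, and the CD45.1 libraries had 82.0 to 488 CPM of the Y-linked genes, so allele and sex of the cells cannot be told apart in the CD45.2 contrasts. The 2 CD45.1 populations differed in these genes too, in every route. In IV, ICV and ITL, Xist was 12.3, 429 and 51.2 CPM in CD45.1 TAµ and 295, 6291 and 1369 CPM in CD45.1 µ. Y-linked genes had 488, 184 and 295 CPM in CD45.1 TAµ and 350, 82.0 and 170 CPM in CD45.1 µ. The part of sex in CD45.1 TAµ against CD45.1 µ was not tested. ICV CD45.1 µ, the CD45.1 library high in Xist, had the lowest Ctse of the 6, at 79.4 CPM. CTR µ had 311 CPM of the Y-linked genes and no Xist, and its Ctse was 2.37 CPM.

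Levels of members were compared with each other over all 11 libraries, on log2 CPM with TMM factors. This describes 36 pairs that share library depth and cell make-up. Ctsl and Ctsf ran together (r = 0.83, rho = 0.92, r = 0.71 without the 2 libraries farthest in Ctsl), and within the 6 CD45.1 libraries r was 0.52. Ctsc and Ctsh gave r = 0.81 (rho = 0.90, 0.58 without 2 libraries, 0.62 within CD45.1), and Ctsd and Ctss r = 0.76 (rho = 0.82, 0.92 without 2 libraries, 0.87 within CD45.1). Ctsl and Ctsc gave r = -0.68 (rho = -0.63, -0.79 without 2 libraries), but -0.16 within CD45.1. Ctse falls into a high and a low set of libraries, so a correlation over all 11 mostly describes that split. Within the 6 CD45.1 libraries its r was 0.20 with Ctsc, 0.80 with Ctsf and 0.78 with Ctss.

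**Figure D4:**
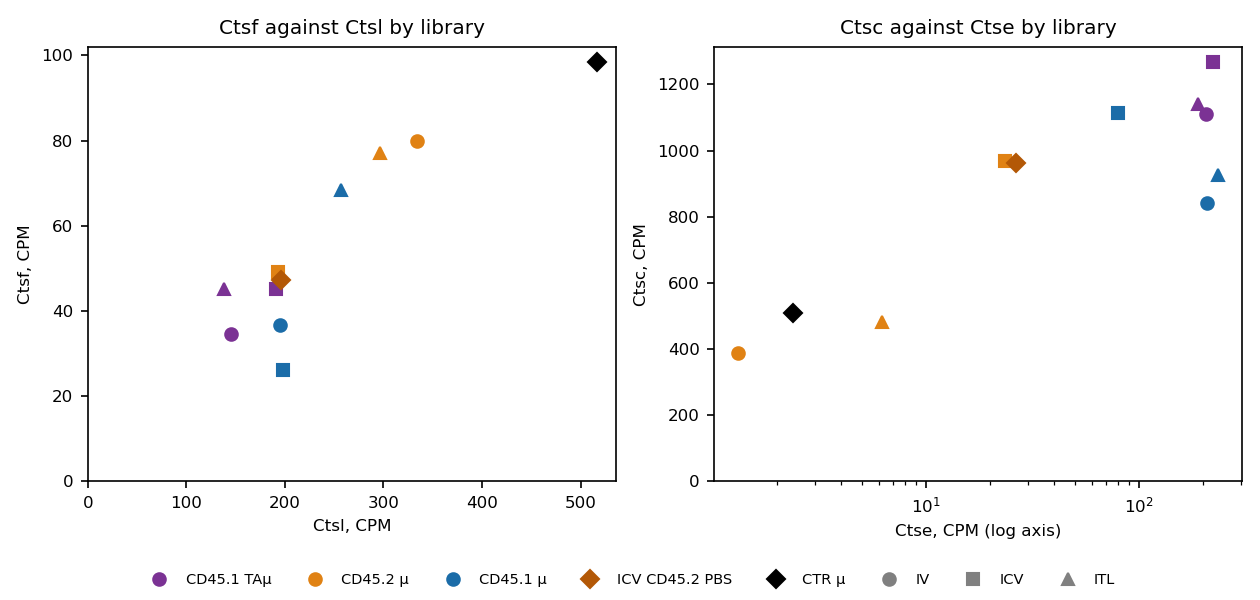
Left, Ctsf against Ctsl, both in CPM; right, Ctsc in CPM against Ctse in CPM on a log axis. Points are the 11 libraries, coloured by population and shaped by route. CTR µ has the highest Ctsl and Ctsf, at 517 and 98.3 CPM. In the right panel ICV CD45.2 µ and PBS sit between the CD45.1 libraries and the other low libraries in Ctse. In Ctsc they lie among the CD45.1 libraries.

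The 8 genes whose pattern over the 11 libraries was most like that of Ctse, among 8086 with a mean of at least 3 log2 CPM, were Arpc5, Dnajb14, Tmem176a, Slc44a1, Mtss1, Actr3, Adgre1 and Eps15. Their r ran from 0.93 for Arpc5, a subunit of the actin-branching Arp2/3 complex, to 0.89 for Eps15, which acts in endocytosis, and without the 2 libraries farthest in Ctse from 0.84 to 0.73. Adgre1, which encodes the macrophage marker F4/80, had 667 to 1061 CPM in the 6 CD45.1 libraries and 262 to 722 CPM in the other 5. Within the 6 CD45.1 libraries r with Ctse ran from -0.47 (Eps15) to 0.74 (Mtss1).

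Genes that act on cathepsins were listed beside them. Of 34 genes for processing, sorting and acidification, 33 were tested, and 0 passed in any of the 6 comparisons in edgeR. Their median log2 fold change was 0.12 in CD45.1 TAµ against CD45.1 µ (0.06 over all genes), -0.05 in CD45.2 µ against CD45.1 µ (-0.01) and 0.13 in CD45.1 TAµ against CD45.2 µ (0.10). Psap, the saposin precursor, had 2855, 2965 and 2962 CPM in IV, ICV and ITL CD45.1 TAµ, 2224, 2210 and 2190 CPM in CD45.2 µ and 2889, 2068 and 2845 CPM in CD45.1 µ, and 2360 CPM in CTR µ. Its log2 fold change was 0.49 ± 0.22 in CD45.1 TAµ against CD45.2 µ (edgeR adjusted p = 0.693). Lgmn, the asparagine endopeptidase that cleaves cathepsin precursors, had 1226 to 2155 CPM in the 9 libraries and 2531 CPM in CTR µ. Lamp1, a protein of the lysosomal membrane, had 736 to 1056 CPM in the 9 libraries and 763 CPM in CTR µ.

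Of 20 cathepsin inhibitors listed, 18 were in the tables and 11 were tested, and 0 passed in any comparison in edgeR. Cst3, cystatin C, drew the most counts of the list. It had 1716, 3424 and 2963 CPM in IV, ICV and ITL CD45.1 TAµ, 5837, 3511 and 3955 CPM in CD45.2 µ and 3645, 2546 and 5279 CPM in CD45.1 µ, below CTR µ (8877 CPM) in all 9. Its log2 fold change in CD45.1 TAµ against CD45.2 µ was -0.61 ± 0.32 (edgeR adjusted p = 0.785), and with TMM factors those groups overlapped. Cst7, cystatin F, which inhibits cathepsin C among others, had 4.19 to 7.36 CPM in CD45.1 TAµ, 6.11 to 52.7 CPM in CD45.2 µ and 0 to 39.2 CPM in CD45.1 µ. Its log2 fold change was -1.99 ± 0.88 in CD45.1 TAµ against CD45.2 µ (edgeR adjusted p = 0.692).

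The MHC class II list holds the invariant chain, chains of the molecule and genes of its expression and peptide loading. All 10 genes were tested. In CD45.1 TAµ against CD45.1 µ 10 of 10 had a log2 fold change above 0, as 54.0% of genes did, with a median of 0.96 (0.06 over all genes). There 0 passed in edgeR and 5 had an unadjusted p under 0.05, as 5.36% of genes did. Against CD45.2 µ 9 of 10 were above 0 (median 1.04) and 0 passed, with 5 of 10 under an unadjusted 0.05, and in CD45.2 µ against CD45.1 µ 5 of 10 were above 0 (median 0.016) and 0 passed, with 0 under an unadjusted 0.05. Cd74, the invariant chain, had 3081, 2699 and 2801 CPM in IV, ICV and ITL CD45.1 TAµ, 1210, 2311 and 789 CPM in CD45.2 µ and 1782, 1468 and 927 CPM in CD45.1 µ, with 3288 CPM in PBS and 415 CPM in CTR µ. Its log2 fold change in CD45.1 TAµ was 1.22 ± 0.29 against CD45.1 µ (edgeR adjusted p = 0.275) and 1.18 ± 0.29 against CD45.2 µ (edgeR adjusted p = 0.125). Over the 11 libraries Ctss and the summed MHC class II level gave r = -0.32 (rho = -0.14). With that sum Ctsl gave r = -0.87 (-0.70 within the 6 CD45.1 libraries), Ctsf -0.64 (-0.11) and Ctsc 0.74 (0.73). The remaining members lay between -0.39 (Ctsd) and 0.62 (Ctse).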

How the data were processed

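Per the labels' protocols, RNA of sorted myeloid brain populations was extracted with a micro column kit and reverse-transcribed. Per the submitters' processing notes the aligner was STAR and the genome GRCm39. Version, annotation, strand setting and filters were not stated. The authors deposited whole-number counts per gene symbol, 1 table per library, and 0 columns were left without a library.

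CPM were computed here from each library total. The 9 libraries of the complete layout were fitted with route and population as additive terms (4 residual degrees of freedom) in edgeR 4.0.16 (R 4.3.3) with TMM scaling. Genes were kept by filterByExpr with its count minimum of 10 and total minimum of 15, which left 13339. The quasi-likelihood F test was adjusted by Benjamini-Hochberg over all genes at 0.05. The SE is the absolute log2 fold change divided by the square root of F. The biological coefficient of variation was 0.842. CTR µ and PBS were kept out of the fit, and 14766 genes passed the same filter over all 11 libraries. Correlations used log2 CPM of genes with TMM factors of all 11 libraries and a prior count of 2. A count of 0 was given an upper limit of 3 counts. Intervals on single libraries have a level of 95% and cover counting error only, since reads are not independent molecules.

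The 9 members and 18 gene lists (210 genes, 206 in the tables) were chosen with earlier results of these data known. All 9 members are named in every comparison. From another list at most 4 genes are named, those past the threshold and then the most abundant. Genes like Ctse are the 8 with the highest r. Rn45s, Xist and the Y-linked genes are named outside that rule. Alternatives were RLE scaling, no filter on low counts, at least 10 CPM in 3 libraries, DESeq2 1.42.0, limma-voom with quality weights (limma 3.58.1), edgeR's legacy quasi-likelihood fit, leaving the other factor out of the model, the 6 libraries of a contrast alone, all 11 libraries, counts without Rn45s, leaving out the 2 libraries with the fewest detected genes, and leaving out each library in turn.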

Additional observations from a re-analysis of the deposited data

How the results depend on the processing

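No paired analysis was possible because no label numbers the animals or ties samples of different groups to one animal. Populations were matched by route alone, which the fit holds as an additive term. Each combination of route and population has 1 library, so a gene has 4 residual degrees of freedom, and population and route are assumed to add up. The p-values and intervals also rest on the spread of the other genes, from which edgeR's quasi-likelihood test borrows. Leaving out a library leaves 1 population with 2 libraries. The cause of the changes listed here was not tested.

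Ctse in CD45.1 TAµ against CD45.2 µ was called in 19 of 20 alternatives and kept its direction in all, with log2 fold changes of 3.46 to 6.47 when 1 library was left out and 3.73 to 4.73 otherwise. In this comparison 2 members were called, Ctse and Ctsc, with no filter (Ctsc adjusted p = 0.0303), with DESeq2 (0.000556), with limma-voom (0.0199) and with all 11 libraries (0.0424, each by its own tool, edgeR unless named). The number of members called ran between 0 and 2 when 1 library was left out. Ctse in CD45.2 µ against CD45.1 µ was called in 9 of 20 alternatives and kept its direction in all, with log2 fold changes of -5.98 to -3.05 when 1 library was left out and -4.55 to -3.52 otherwise. There 0 members were called with the filter of 10 CPM (Ctse adjusted p = 0.240 in edgeR), with limma-voom (0.207), with the legacy fit (0.538), without the route term (0.0582) and with the 6 libraries alone (0.724), and between 0 and 1 when 1 library was left out. In the other comparisons 0 members were called in every alternative. The cathepsin share of library totals was 1.495% without Rn45s. Of 108 mean levels on other scales, 22 moved by more than 1 SD. Counts of members without overlap were compared on other scales after the data had been seen. In CD45.1 TAµ against CD45.2 µ 3 lay above and 2 below in CPM of the library total, and 1 and 1 with TMM factors or without Rn45s.

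Over all genes, calls in CD45.1 TAµ against CD45.1 µ were 10 in the edgeR fit, 2 with the filter of 10 CPM and 217 with DESeq2. In CD45.1 TAµ against CD45.2 µ they were 46, 22 with the legacy fit and 195 with DESeq2. In CD45.2 µ against CD45.1 µ they were 4, 0 with limma-voom and 278 with DESeq2. In ITL against IV they were 29, 10 with the legacy fit and 223 with limma-voom. In ICV against IV and in ITL against ICV they were 0 in edgeR and 147 and 32 with DESeq2.

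Some differences near 0, none of them called, changed sign (log2 fold changes). With limma-voom CD45.1 TAµ against CD45.1 µ gave -0.095 for Ctsd, -0.16 for Ctss and -0.16 for Ctsf, CD45.2 µ against CD45.1 µ gave -0.029 for Ctsz, ICV against IV gave -0.14 for Ctse, 0.29 for Ctss and 0.11 for Ctsf, and ITL against ICV gave 0.19 for Ctse and -0.064 for Ctsd. Without a term for the other factor, CD45.1 TAµ against CD45.1 µ gave -0.012 for Ctss, ICV against IV gave -0.23 for Ctse and -0.081 for Ctsl, and ITL against ICV gave 0.36 for Ctse and 0.051 for Ctsh. Without the 2 libraries of fewest detected genes (ICV CD45.1 µ and IV CD45.2 µ), CD45.1 TAµ against CD45.1 µ gave -0.22 for Ctse, -0.21 for Ctsd, -0.37 for Ctss, -0.14 for Ctsz and -0.23 for Ctsf, CD45.2 µ against CD45.1 µ gave -0.055 for Ctsl and -0.29 for Ctsz, ICV against IV gave 0.63 for Ctss and 0.59 for Ctsf, and ITL against ICV gave -0.24 for Ctsd, -0.18 for Ctss and -0.049 for Ctsl. With the 6 libraries of the contrast alone, ICV against IV gave -0.0088 for Ctsl, and ITL against ICV gave 0.22 for Ctse and 0.018 for Ctsz. ITL against ICV also gave 0.0033 for Ctsz with the filter of 10 CPM, and 0.019 for Ctse and 0.00025 for Ctsz without Rn45s.

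When 1 library was left out, log2 fold changes with a change of sign ran as follows. In CD45.1 TAµ against CD45.1 µ they ran between -0.35 and 0.89 for Ctse, -0.19 and 0.35 for Ctsd, -0.28 and 0.29 for Ctss, -0.12 and 0.42 for Ctsz and -0.22 and 0.48 for Ctsf. In CD45.2 µ against CD45.1 µ they ran between -0.34 and 0.16 for Ctsd, -0.33 and 0.021 for Ctsb, -0.55 and 0.018 for Ctss, -0.54 and 0.14 for Ctsh and -0.18 and 0.35 for Ctsz. In CD45.1 TAµ against CD45.2 µ they ran between -0.15 and 0.42 for Ctsd and -0.21 and 0.30 for Ctsz. For ITL against IV the bounds were -0.10 and 0.42 for Ctsd, -0.12 and 0.39 for Ctss, -0.032 and 0.36 for Ctsl and -0.20 and 0.93 for Ctse. For ICV against IV they were -0.19 and 0.38 for Ctsd, -0.32 and 0.24 for Ctsl, -0.064 and 0.48 for Ctsz, -0.38 and 1.27 for Ctse, -0.35 and 0.18 for Ctss and -0.47 and 0.14 for Ctsf. For ITL against ICV they were -0.29 and 0.29 for Ctsz, -1.04 and 0.63 for Ctse, -0.16 and 0.17 for Ctsb, -0.27 and 0.36 for Ctsh, -0.18 and 0.35 for Ctsd, -0.092 and 0.45 for Ctsl and -0.091 and 0.48 for Ctss.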
